A study of Mus musculus with 34 samples.

Results

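The genes described are 8 secreted chemokines and 1 chemokine receptor of the CXC and CX3C classes: the ligands Cxcl1, Cxcl2, Cxcl5, Cxcl12, Cxcl13, Cxcl14, Cxcl16 and Cx3cl1, and the receptor Cxcr4. They were taken by symbol: every probe set that the platform table assigns to one of these 9 genes was read, which gave 19 probe sets of the 45101 on the array. Of these, 12 probe sets of 7 genes passed the filter on low values, a log2 signal of at least 4 in at least 4 arrays. The remaining 7 probe sets did not, and among them were all those of Cxcl5 and Cxcl13, which are given as values without a test.

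The series compares mice with and without trkB.T1, the truncated form of the neurotrophin receptor TrkB (gene Ntrk2) that lacks the kinase domain, before and after a bruising injury of the thoracic spinal cord. All animals were on C57BL/6J, backcrossed for more than 20 generations, and 8 to 12 weeks old. They were either trkB.T1 wild type (WT) or trkB.T1 knockout (KO), and no label restricts the loss to a cell type. WT arrays numbered 4 in sham, 5 on day 1, 4 on day 3 and 4 on day 7 after moderate contusion. KO arrays numbered 4 in sham, 4 on day 1, 5 on day 3 and 4 on day 7. Each array was described as a biological replicate, so the p-values measure the spread between these arrays. The control arrays are named sham in titles and sources, but their description codes start with Nav, and the sources used here do not say whether those mice were operated on.

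Chemokines are small secreted proteins that bind G protein-coupled receptors on leukocytes and direct their movement along a gradient. The ligands Cxcl1, Cxcl2 and Cxcl5 share the receptor Cxcr2 and draw neutrophils, and their genes are switched on within hours by interleukin 1, tumour necrosis factor and NF-κB. Cxcl12 acts through Cxcr4, keeps stem cells and leukocytes in their niches and is made by vessels, meninges and stroma. Cxcl13 draws B cells through Cxcr5. Cxcl16 and Cx3cl1 are made as membrane-bound proteins with a chemokine head, and proteases such as Adam10 and Adam17 release them. Cx3cl1, also called fractalkine, is carried by neurons in the cord and is read by Cx3cr1 on microglia and monocytes. Cxcl14 is a broadly expressed epithelial and glial chemokine whose receptor is less settled.

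The genes of Cxcl1 and Cxcl2 lie next to each other in a chemokine cluster on mouse chromosome 5, in the order Cxcl5, Ppbp, Pf4, Cxcl3, Cxcl15, Cxcl1, Cxcl2 among protein-coding genes of RefSeq GRCm38.p6. Their promoters are printed because these 2 genes were the members called against sham on day 1 and day 3 but not on day 7 in both genotypes, with that of Cxcl3, the gene whose signal ran closest to Cxcl2 over the 34 arrays (r = 0.98). Each line gives the 150 bases before the RefSeq start of transcription, 5′ to 3′ on the gene's own strand (build GRCm38.p6): Cxcl1 (chr5:90891095-90891244, + strand), Cxcl2 (chr5:90903749-90903898, + strand) and Cxcl3 (chr5:90785951-90786100, + strand). Capitals mark the letters that match the NF-κB consensus.
Cxcl1: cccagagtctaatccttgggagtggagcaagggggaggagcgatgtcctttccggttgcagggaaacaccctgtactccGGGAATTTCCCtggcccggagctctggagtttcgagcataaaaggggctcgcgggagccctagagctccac
Cxcl2: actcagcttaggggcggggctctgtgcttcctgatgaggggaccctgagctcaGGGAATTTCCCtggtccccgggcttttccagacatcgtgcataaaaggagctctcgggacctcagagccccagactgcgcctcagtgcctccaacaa
Cxcl3: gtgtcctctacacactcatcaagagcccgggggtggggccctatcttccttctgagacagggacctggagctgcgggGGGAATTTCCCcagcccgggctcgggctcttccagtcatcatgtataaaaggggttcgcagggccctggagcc

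All 3 windows held the same 11 letters, GGGAATTTCCC, which are 2 overlapping matches to the 10-letter consensus, 1 on each strand. The match began 71 bases before the start in Cxcl1, 97 in Cxcl2 and 73 in Cxcl3. Over the window from 250 bases before to 50 after the start, 8.46% of 32851 RefSeq promoters held the consensus on either strand. These 11 letters stood in 14 of the 32851, 0.0426%. The letters were taken from the 3 windows printed here, so that share is no test. Of the 9 members, 7 had an entry, and 2 of these 7, Cxcl1 and Cxcl2, held the consensus. The letters TATAAA (either strand, 13.6% of all promoters) stood in Cxcr4, Cxcl13, Cx3cl1 and Cxcl3, and GGGCGG (either strand, 35.7%) in Cxcl2, Cxcr4, Cxcl12, Cx3cl1 and Cxcl14. Cxcl5 and Cxcl16 had no entry.

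Signals are log2 values computed by GCRMA, as deposited. The lowest value of the scale was 2.17 and 33.7% of all values lay within 0.1 of it, so a difference from a group at that floor is a lower bound in size. Ntrk2 checked the genotype labels. On 1420838_at all WT arrays read 10.01 to 10.85, and the KO arrays read 3.12 to 4.94, except the library labelled sham KO replicate 2, at 9.46. On 1435196_at that library read 8.59, where the other KO arrays read 2.83 and the WT arrays 8.65 to 9.92. Its signal thus lay just below the WT range on both probe sets, and it was kept as labelled. By source and time field, 2 arrays titled as day 1 WT (replicates 1 and 2) would belong to day 7 and sham. The titles were followed. The 3′ minus 5′ difference of the actin controls, which is larger in degraded RNA, averaged 1.97 in sham WT and 2.08 in sham KO. It was 1.72, 1.488 and 1.85 on day 1, day 3 and day 7 in WT, and 1.77, 1.495 and 1.94 in KO. That of the Gapdh controls ran the other way, at 0.066 in sham WT, 0.096 in sham KO and 0.207 to 0.444 in the injured groups. The part of RNA quality in the results was not tested. Markers of spinal cord cells were high in every sham array: neuron markers averaged 12.67 to 12.72 in WT and 12.63 to 12.74 in KO, and oligodendrocyte markers 13.58 to 13.83 and 13.55 to 13.67.

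After contusion the members moved on 3 different schedules. Cxcl1, Cxcl2 and Cxcl14 were highest on day 1, Cxcl16 and Cxcl12 climbed or stayed up through day 7 with Cxcr4, and Cx3cl1 fell. For Cxcl12 and Cxcl14 this is the course of the brightest probe set, and the second tested one went otherwise. A gene was called at an adjusted p under 0.05 in limma's test, with Benjamini-Hochberg adjustment over the 24573 tested probe sets and 8 group means fitted to all 34 arrays. The tested probe set brightest on average over all 34 arrays, injured ones included, stands for a gene. In WT, 5 of the 7 tested members rose and 1 fell on day 1, beside a background in which 26.6% of 11998 genes were called higher and 31.8% lower. On day 3 in WT 6 rose and 1 fell (background 29.0% higher and 37.0% lower), and on day 7 in WT 4 rose and 1 fell (background 25.4% higher and 32.6% lower). In KO, 3 rose and 0 fell on day 1, where 4 members had an unadjusted p under 0.05 (background 23.1% higher and 26.4% lower). On day 3 in KO 6 rose and 1 fell (background 30.7% higher and 38.4% lower), and on day 7 in KO 4 rose and 1 fell (background 22.9% higher and 30.1% lower). The share of members called higher thus lay above the background share in each of these 6 comparisons, in a list chosen with such results known. Cxcl1, Cxcl2 and Cxcr4 read below 4 in every sham array, so they passed the filter through injured arrays alone. A rise was thus built in for these genes, and the comparison of shares is no test. The median log2 difference of the 7 members was 1.43, 1.94 and 0.36 on day 1, day 3 and day 7 in WT and 0.72, 1.93 and 0.33 in KO. The median over all genes lay between −0.06 and −0.05 in these comparisons. Non-overlap of injured and sham arrays, given for single members below, was common: it held for 53.2%, 57.5% and 57.5% of all genes on day 1, day 3 and day 7 in WT and 55.5%, 60.7% and 62.6% in KO, and for 5, 7 and 4 of the 7 members in WT and 5, 7 and 5 in KO. The 3 comparisons of a genotype share its sham arrays. The arrays are of whole tissue, in which fewer cells of a type and less RNA per cell cannot be told apart.

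**Figure D1:**
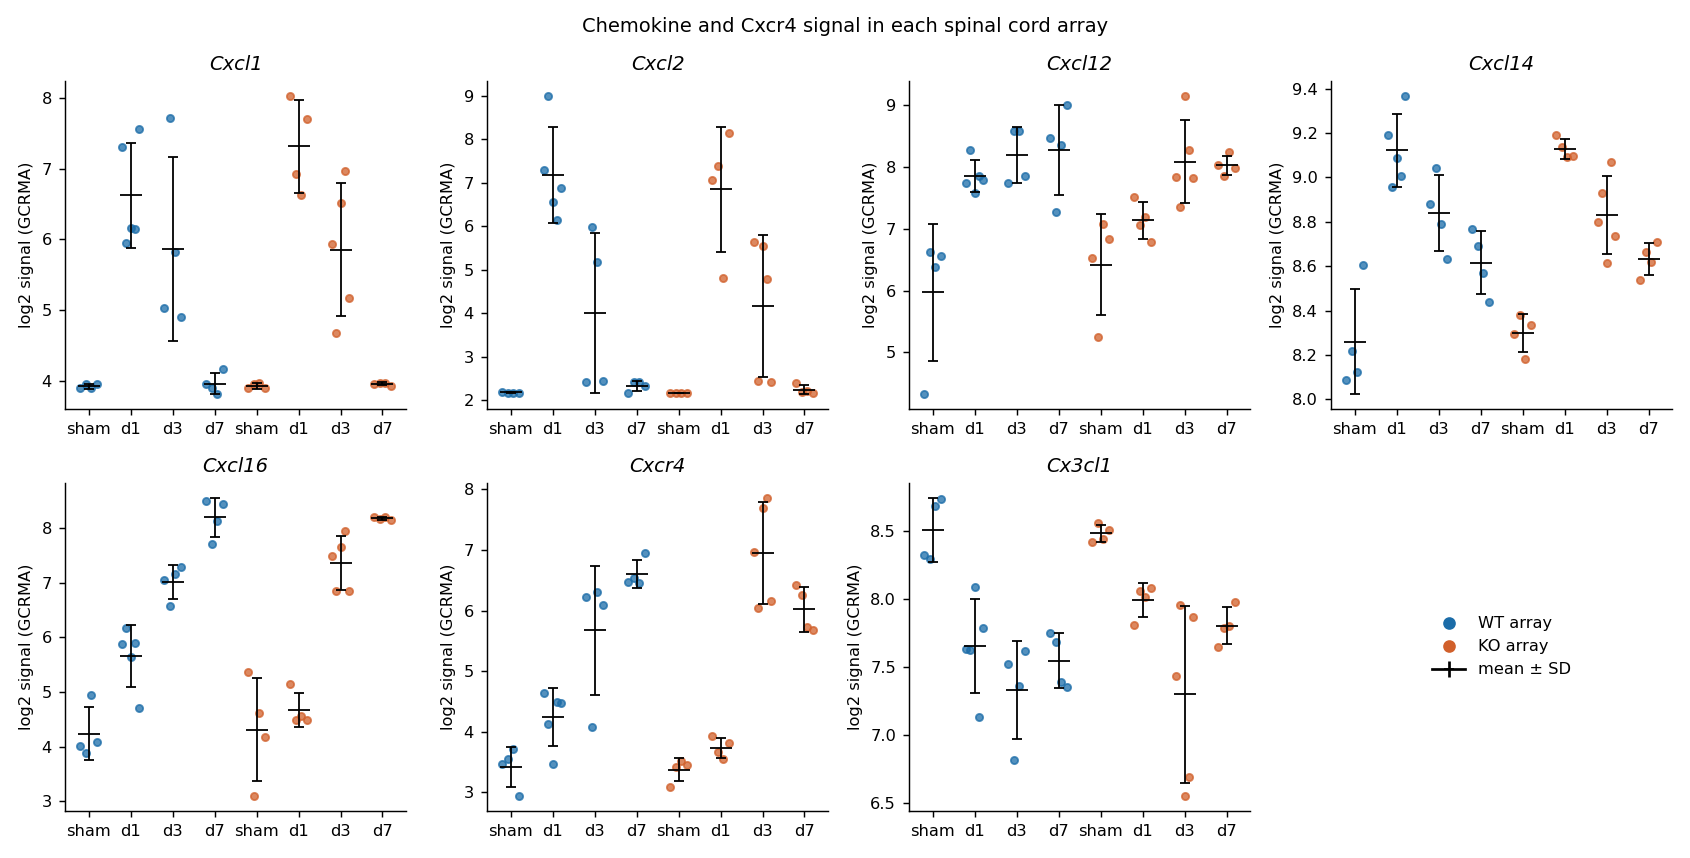
Log2 GCRMA signal (y axis) of the brightest probe set of each tested member in the 34 arrays, by group (x axis: sham, day 1, day 3 and day 7, WT in blue and KO in orange), with the group mean ± SD in black. Cxcl1 and Cxcl2 are back at the sham level on day 7, Cxcl16 and Cxcr4 are not, and Cx3cl1 lies below sham on every day.

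Both doubts about labels were carried through the comparisons with sham, and through those between genotypes as ranges given below. With the library labelled sham KO replicate 2 left out, 3, 7 and 5 of 7 members were called on day 1, day 3 and day 7 against sham in KO, the same counts as with it. Its absence lowered the KO differences of Cxcl12 to 0.33, 1.28 and 1.21 and those of Cxcl16 to −0.05, 2.64 and 3.47 on these days. Those of the other 5 members moved by less than 0.05. With the day 1 WT arrays in doubt left out, 6, 7 and 5 members were called in WT. With these arrays placed by source and time field, 2, 6 and 5 were. The share of all genes called was not computed under this or any other alternative, so these counts have no background beside them. Under that placing the day 1 WT calls of Cxcl2 (2.98, adjusted p = 0.0797), Cxcl12 (1.31, adjusted p = 0.0653), Cxcl16 (0.79, adjusted p = 0.247) and Cx3cl1 (−0.66, adjusted p = 0.065) were lost, and so were those of Cxcl2 on day 3 in WT (0.46, adjusted p = 0.757) and KO (1.99, adjusted p = 0.137) and of Cxcl14 on day 7 in KO (0.33, adjusted p = 0.0761). On the array the 2 disputed libraries read Cxcl2 at 7.28 and 8.99, inside or above the range of the other day 1 arrays and above every sham and day 7 array. Outside the members, their monocyte and macrophage markers averaged 8.22 and 8.14. Arrays of sham WT read 4.72 to 4.97 there, and those of day 7 WT 9.38 to 10.14. Microglia markers of the 2 libraries averaged 6.61 and 6.54, beside 7.11 to 7.52 in sham WT and 8.82 to 8.93 on day 7 in WT.

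Cxcl2, a neutrophil attractant made by macrophages and endothelium, showed the largest difference from sham of the members. In WT it read 2.20, 2.17, 2.17 and 2.17 in sham, 7.28, 8.99, 6.54, 6.15 and 6.88 on day 1, 2.42, 5.97, 5.18 and 2.43 on day 3, and 2.17, 2.42, 2.41 and 2.33 on day 7. In KO it read 2.17, 2.17, 2.17 and 2.17 in sham, 7.05, 7.39, 4.81 and 8.14 on day 1, 5.64, 2.43, 5.55, 4.78 and 2.41 on day 3, and 2.39, 2.18, 2.21 and 2.17 on day 7. All 9 injured arrays of day 1 lay above all 8 sham arrays, which sat at the floor of the scale. Day 3 was split: 2 of 4 WT arrays and 2 of 5 KO arrays read 2.40 to 2.43, near the floor, and the others 4.78 to 5.97. On day 1 the log2 difference from sham was 4.99 (95% interval 3.54 to 6.44, adjusted p = 1.43e-06) in WT and 4.68 (95% interval 3.15 to 6.21, adjusted p = 1.14e-05) in KO, at least 31.8-fold and 25.6-fold in signal. On day 3 it was 1.82 (95% interval 0.29 to 3.35, adjusted p = 0.0356) in WT and 1.99 (95% interval 0.54 to 3.44, adjusted p = 0.0154) in KO. Both day 3 calls rested on single arrays. The WT call was lost without any 1 of day 3 WT replicate 2 or 3 or sham WT replicate 1, 2, 3 or 4 (1.17 to 1.83, adjusted p = 0.0578 to 0.186). It was lost too with no filter on low values (1.82, adjusted p = 0.0722), with only the arrays compared (1.82, adjusted p = 0.0873) and with array weights (0.93, adjusted p = 0.192). The KO call was lost without day 3 KO replicate 1 (1.62, adjusted p = 0.0532) and without day 3 KO replicate 3 (1.65, adjusted p = 0.0529). On day 7 the differences were 0.16 and 0.07 and were not called (adjusted p = 0.881 and 0.951).

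Cxcl1, a close relative of Cxcl2 and a product of astrocytes and endothelium, followed the same order of days. In WT it read 3.89, 3.95, 3.89 and 3.95 in sham, 7.30, 5.95, 6.16, 6.15 and 7.56 on day 1, 5.02, 7.72, 5.83 and 4.90 on day 3, and 3.95, 3.89, 3.82 and 4.16 on day 7. In KO it read 3.89, 3.95, 3.97 and 3.89 in sham, 8.03, 6.92, 6.62 and 7.71 on day 1, 5.94, 4.68, 6.51, 6.96 and 5.17 on day 3, and 3.95, 3.97, 3.97 and 3.93 on day 7. Sham arrays read 3.89 to 3.97, close to the lowest value of this probe set, 3.82, and no injured array of day 1 or day 3 overlapped them. On day 3 the arrays spread widely, from 4.90 to 7.72 in WT and from 4.68 to 6.96 in KO. The difference from sham on day 1 was 2.70 (95% interval 1.80 to 3.60, adjusted p = 1.07e-05) in WT and 3.39 (95% interval 2.44 to 4.34, adjusted p = 1.04e-06) in KO, at least 6.5-fold and 10.5-fold. On day 3 it was 1.94 (95% interval 1.00 to 2.89, adjusted p = 0.000649) in WT and 1.93 (95% interval 1.03 to 2.82, adjusted p = 0.000356) in KO. On day 7 it was 0.03 in WT and 0.03 in KO, with the arrays of both genotypes overlapping sham and no call (adjusted p = 0.96 and 0.97). The second tested probe set of Cxcl1, 1457644_s_at, was called on day 1 (log2 1.85 in WT and 3.11 in KO) and missed the threshold on day 3 (1.31, adjusted p = 0.0515, and 1.03, adjusted p = 0.1). The third, 1441855_x_at, stayed below the filter, between 2.17 and 3.31.

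Cxcl5, a further Cxcr2 ligand, stayed below the filter. On its only probe set, 1419728_at, sham arrays of both genotypes read 2.18 to 2.20. On day 1 the WT arrays read 2.96, 2.94, 2.51, 2.60 and 3.46, all above sham. The KO arrays read 3.05, 2.72, 2.20 and 2.77, with replicate 3 at the sham level. On day 3 the KO arrays read 3.51, 2.20, 2.83, 2.48 and 2.20 and the WT arrays 2.20 to 2.24. On day 7 the arrays read 2.17 to 2.29 in both genotypes. These values are close to the floor, where the scale is compressed, and no difference was tested.

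Neutrophil markers did not separate the injured arrays from sham as these ligands did on day 1. Of 10 listed markers 7 were tested, Cxcr2 lay below the filter, and Ly6g and Retnlg were not read here. Their mean log2 level ran over 7.12 to 9.13 in sham, 6.49 to 9.62 on day 1, 6.48 to 9.36 on day 3 and 7.51 to 10.47 on day 7 in WT and 6.66 to 8.11 in sham, 7.62 to 7.91 on day 1, 7.64 to 11.04 on day 3 and 7.45 to 8.73 on day 7 in KO, so that injured and sham arrays overlapped on every day. On day 1, Csf3r, the receptor for granulocyte colony-stimulating factor, was the 1 marker of 7 that rose in WT and in KO, and 0 fell. Csf3r rose on day 3 and day 7 too, by 1.16 and 2.07 in WT and by 1.48 and 1.98 in KO. Mmp8 rose on day 3 in KO (2.64) and on day 7 in WT (1.34) and KO (1.58). The other tested neutrophil markers were not called on these days. The neutrophil markers differed in level in sham. S100a8 averaged 11.96 in sham WT and 11.36 in sham KO, Ltf 7.23 and 6.33, and Mmp8 3.09 and 2.54 (these genes were chosen after their values were seen). Marker counts stand beside 22.9% to 30.7% of all genes called higher and 26.4% to 38.4% called lower. Monocyte and macrophage markers rose, 8 of 8 tested on day 1, day 3 and day 7 in WT and 7, 8 and 7 of 8 in KO. Their mean level ran over 4.72 to 4.97 in sham, 7.60 to 8.40 on day 1, 8.50 to 9.62 on day 3 and 9.38 to 10.14 on day 7 in WT and 4.18 to 4.89 in sham, 7.33 to 8.03 on day 1, 9.31 to 10.50 on day 3 and 9.52 to 9.63 on day 7 in KO. Endothelial markers ran over 5.57 to 5.83 in sham, 6.99 to 7.40 on day 1, 7.44 to 8.53 on day 3 and 5.37 to 7.21 on day 7 in WT and 6.10 to 6.42 in sham, 6.73 to 7.24 on day 1, 6.69 to 8.53 on day 3 and 5.79 to 6.25 on day 7 in KO, and all 7 rose on day 1 in WT and 3 of 7 in KO. Ccr2, Msr1, Ms4a7, Mmp8 and Pecam1 averaged below 4 in both sham groups, and the filter favours a rise in such genes. The part of neutrophils, monocytes, macrophages and endothelial cells in the chemokine signals was not tested.

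Cxcl12, the ligand of Cxcr4, rose early in WT and stayed high on its brightest probe set, 1448823_at. In WT it read 4.33, 6.63, 6.38 and 6.55 in sham, 7.74, 8.27, 7.58, 7.85 and 7.79 on day 1, 7.73, 8.58, 8.57 and 7.85 on day 3, and 8.47, 7.27, 8.35 and 8.99 on day 7. In KO it read 6.52, 5.25, 7.07 and 6.83 in sham, 7.51, 7.07, 7.19 and 6.79 on day 1, 7.84, 7.35, 9.14, 8.27 and 7.81 on day 3, and 8.03, 7.85, 8.23 and 7.98 on day 7. All injured WT arrays lay above all WT sham arrays. In KO the day 1 arrays overlapped sham, and those of day 3 and day 7 did not. The difference from sham was 1.88 (95% interval 1.05 to 2.70, adjusted p = 0.000328) on day 1, 2.21 (95% interval 1.34 to 3.08, adjusted p = 5.75e-05) on day 3 and 2.30 (95% interval 1.43 to 3.17, adjusted p = 5.45e-05) on day 7 in WT. In KO it was 0.72 (95% interval −0.15 to 1.59, adjusted p = 0.171) on day 1, without a call, 1.66 (95% interval 0.84 to 2.49, adjusted p = 0.000661) on day 3 and 1.60 (95% interval 0.73 to 2.47, adjusted p = 0.00279) on day 7. In both sham groups 1 array lay far below the rest, WT replicate 1 at 4.33 and the library labelled sham KO replicate 2 at 5.25. The same 2 arrays were lowest of all 34 in fibroblast markers, at 6.08 and 6.25, where the other sham arrays read 8.33 to 9.02. With both left out, an alternative added after the values were seen, the WT differences were 1.33, adjusted p = 0.00117 on day 1, 1.66, adjusted p = 0.000117 on day 3 and 1.75, adjusted p = 1e-04 on day 7. The KO differences were 0.33, adjusted p = 0.45, 1.28, adjusted p = 0.000944 and 1.21, adjusted p = 0.00442 on the same days.

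The second bright probe set of Cxcl12, 1417574_at, gave another course. In WT it read 6.89, 7.38, 6.71 and 7.28 in sham, 7.52, 7.31, 7.11, 7.74 and 7.85 on day 1, 7.41, 9.01, 7.40 and 7.61 on day 3, and 6.49, 6.28, 7.42 and 7.86 on day 7. In KO it read 6.87, 7.28, 7.45 and 7.59 in sham, 7.43, 6.99, 7.42 and 7.59 on day 1, 7.34, 7.21, 8.04, 7.68 and 6.28 on day 3, and 6.28, 5.86, 6.47 and 6.31 on day 7. In sham 1417574_at was the brighter of both, with means of 7.07 in WT and 7.30 in KO, where 1448823_at averaged 5.97 and 6.42. The choice of 1448823_at to stand for the gene thus rests on its level in injured arrays. The groups of 1417574_at overlapped in most comparisons. The difference from sham in WT was 0.43 (95% interval −0.23 to 1.10, adjusted p = 0.27) on day 1, 0.79 (95% interval 0.09 to 1.49, adjusted p = 0.0459) on day 3 and −0.06 (95% interval −0.75 to 0.64, adjusted p = 0.907) on day 7. In KO it was 0.06 on day 1 (adjusted p = 0.9), 0.02 on day 3 (adjusted p = 0.97) and −1.07 (95% interval −1.76 to −0.37, adjusted p = 0.0116) on day 7, a fall where 1448823_at rose. Over the 34 arrays both probe sets correlated at r = 0.19. Where each lies in the gene is not stated in the sources used here, and transcripts cannot be assigned. With the mean of both in place of the brightest, the day 7 KO difference was 0.27, adjusted p = 0.51. The third probe set, 1439084_at, lay at the floor, between 2.18 and 2.44.

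Cxcr4, the receptor of Cxcl12 on leukocytes, progenitors and endothelium, rose later than the neutrophil ligands. In WT it read 3.46, 3.54, 3.71 and 2.94 in sham, 4.64, 4.12, 3.46, 4.50 and 4.48 on day 1, 6.22, 4.07, 6.30 and 6.09 on day 3, and 6.48, 6.54, 6.45 and 6.96 on day 7. In KO it read 3.09, 3.41, 3.52 and 3.45 in sham, 3.92, 3.66, 3.54 and 3.81 on day 1, 6.98, 6.05, 7.69, 7.87 and 6.16 on day 3, and 6.42, 6.25, 5.74 and 5.67 on day 7. On day 3 and day 7 no injured array overlapped the sham arrays of its genotype. Day 3 WT replicate 2, at 4.07, was far below the other day 3 WT arrays. On day 1 the difference from sham was 0.83 (95% interval 0.09 to 1.57, adjusted p = 0.0558) in WT and 0.37 (95% interval −0.42 to 1.15, adjusted p = 0.458) in KO, and neither was called. The WT difference passed without any 1 of day 3 WT replicate 2 or day 3 KO replicate 2, 3, 4 or 5 or day 1 WT replicate 3 (0.83 to 1.02, adjusted p = 0.0145 to 0.0489). With only the arrays compared in the fit both passed (0.83, adjusted p = 0.0179 in WT and 0.37, adjusted p = 0.0283 in KO). On day 3 it was 2.26 (95% interval 1.48 to 3.04, adjusted p = 1.13e-05) in WT and 3.58 (95% interval 2.84 to 4.32, adjusted p = 1.76e-09) in KO, 4.78-fold and 12-fold. On day 7 it was 3.19 (95% interval 2.41 to 3.97, adjusted p = 7.33e-08) in WT and 2.65 (95% interval 1.87 to 3.43, adjusted p = 2.08e-06) in KO. The highest value was that of day 7 in WT (mean 6.61 ± 0.24, SD, n = 4) and that of day 3 in KO (mean 6.95 ± 0.84, SD, n = 5).

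Cxcl16, a membrane-bound chemokine and scavenger receptor of macrophages, rose stepwise to day 7. In WT its brightest probe set, 1449195_s_at, read 4.01, 3.88, 4.95 and 4.09 in sham, 5.88, 6.18, 5.65, 5.90 and 4.70 on day 1, 7.05, 6.58, 7.17 and 7.29 on day 3, and 8.50, 7.72, 8.14 and 8.45 on day 7. In KO it read 5.36, 3.09, 4.61 and 4.18 in sham, 5.14, 4.50, 4.55 and 4.50 on day 1, 7.49, 6.86, 7.66, 7.95 and 6.85 on day 3, and 8.20, 8.16, 8.22 and 8.16 on day 7. On day 3 and day 7 every injured array lay above sham. On day 1 the WT arrays, except replicate 5, lay above sham and the KO arrays lay inside the sham range. The difference from sham in WT was 1.43 (95% interval 0.77 to 2.09, adjusted p = 0.000593) on day 1, 2.79 (95% interval 2.09 to 3.49, adjusted p = 8.94e-08) on day 3 and 3.97 (95% interval 3.27 to 4.67, adjusted p = 1.17e-10) on day 7, the last 15.7-fold. In KO it was 0.36 (95% interval −0.34 to 1.06, adjusted p = 0.412) on day 1, without a call, 3.05 (95% interval 2.38 to 3.71, adjusted p = 4.8e-09) on day 3 and 3.87 (95% interval 3.17 to 4.57, adjusted p = 2.24e-10) on day 7. Sham KO spread from 3.09, in the library labelled sham KO replicate 2, to 5.36. Without that library the day 1 difference in KO was −0.05, adjusted p = 0.93. The second probe set, 1418718_at, correlated with the first at r = 0.93 and was called on day 3 and day 7 in both genotypes (log2 1.05 and 2.60 in WT, 1.97 and 2.65 in KO). On day 1 it was not called in WT (0.14, adjusted p = 0.647) or in KO (0.19, adjusted p = 0.574), so the day 1 rise in WT rests on 1 of both probe sets.

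Cxcl14 changed little in size but with a narrow spread. On 1418457_at the WT arrays read 8.09, 8.22, 8.13 and 8.61 in sham, 9.19, 8.96, 9.09, 9.01 and 9.37 on day 1, 8.88, 9.04, 8.79 and 8.63 on day 3, and 8.77, 8.69, 8.57 and 8.44 on day 7. The KO arrays read 8.30, 8.38, 8.18 and 8.34 in sham, 9.19, 9.14, 9.09 and 9.10 on day 1, 8.80, 8.93, 8.61, 9.07 and 8.74 on day 3, and 8.54, 8.66, 8.62 and 8.71 on day 7. All day 1 and day 3 arrays lay above the sham arrays of their genotype. On day 7 the KO arrays did, and those of WT overlapped sham replicate 4. The difference from sham was 0.86 (95% interval 0.65 to 1.07, adjusted p = 6.63e-08) on day 1, 0.58 (95% interval 0.36 to 0.80, adjusted p = 3.84e-05) on day 3 and 0.36 (95% interval 0.14 to 0.58, adjusted p = 0.00651) on day 7 in WT. In KO it was 0.83 (95% interval 0.61 to 1.05, adjusted p = 4.2e-07), 0.53 (95% interval 0.32 to 0.74, adjusted p = 4.44e-05) and 0.33 (95% interval 0.11 to 0.55, adjusted p = 0.0119) on the same days. The dimmer probe set, 1418456_a_at, went against it: log2 0.07 on day 1 in WT (adjusted p = 0.632), and lower on day 3 in both genotypes, at −0.33 in WT (adjusted p = 0.0245) and −0.43 in KO (adjusted p = 0.00292). Both probe sets correlated at r = −0.17. With their mean the calls on day 3 and day 7 were lost: 0.12, adjusted p = 0.158 and 0.16, adjusted p = 0.0782 in WT, and 0.05, adjusted p = 0.53 and 0.03, adjusted p = 0.795 in KO.

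**Figure D2:**
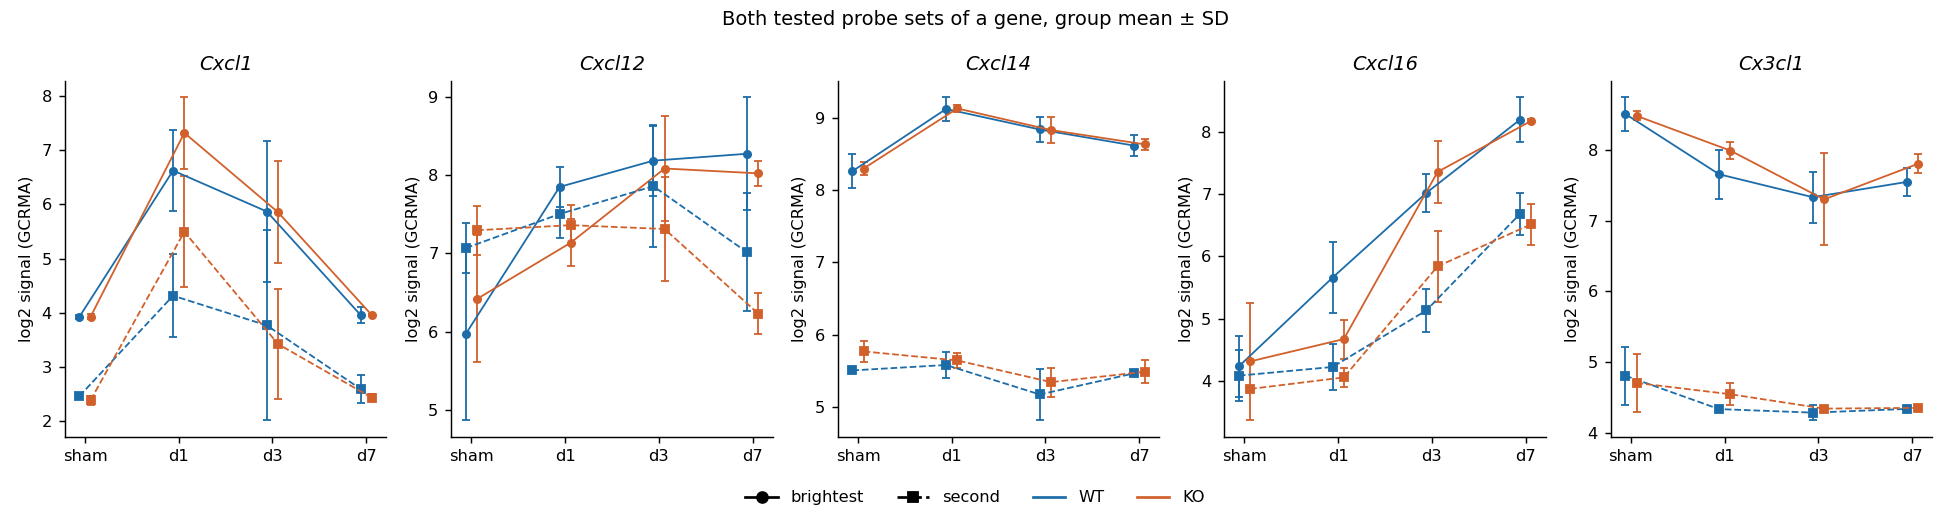
Group mean ± SD of the log2 GCRMA signal (y axis) at sham, day 1, day 3 and day 7 (x axis) for the brightest (circles, solid) and the second tested probe set (squares, dashed) of the 5 members that have a pair, in WT (blue) and KO (orange). The pairs of Cxcl1 (r = 0.95 over 34 arrays) and Cxcl16 (r = 0.93) run in parallel, and those of Cxcl12 (r = 0.19) and Cxcl14 (r = −0.17) do not.

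Cxcl13, the B cell chemokine, was not detected above the filter. Both of its probe sets read 2.17 in all 8 sham arrays and all 9 arrays of day 1. On 1448859_at the highest values were 2.28 on day 3 in WT, 2.39 on day 7 in WT and 2.72 on day 7 in KO, and on 1417851_at 2.49 on day 3 in KO and 2.42 on day 7 in KO. B cell and T cell markers on the array, 4 of each list of 5, lay below the filter too.

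Cx3cl1, the neuronal ligand of microglial Cx3cr1, was the member that fell. On 1415803_at the WT arrays read 8.32, 8.29, 8.68 and 8.74 in sham, 7.64, 7.63, 8.09, 7.14 and 7.79 on day 1, 7.52, 6.82, 7.36 and 7.62 on day 3, and 7.75, 7.69, 7.39 and 7.35 on day 7. The KO arrays read 8.42, 8.56, 8.44 and 8.50 in sham, 7.81, 8.06, 8.01 and 8.08 on day 1, 7.43, 7.96, 6.55, 6.69 and 7.86 on day 3, and 7.65, 7.79, 7.80 and 7.98 on day 7. Every injured array lay below every sham array of its genotype. The lowest values, 6.55 and 6.69, were those of day 3 KO replicates 3 and 4. The difference from sham in WT was −0.85 (95% interval −1.30 to −0.41, adjusted p = 0.00183) on day 1, −1.18 (95% interval −1.65 to −0.71, adjusted p = 7.29e-05) on day 3 and −0.96 (95% interval −1.43 to −0.49, adjusted p = 0.000914) on day 7. In KO it was −0.49 (95% interval −0.96 to −0.02, adjusted p = 0.0828) on day 1, without a call, −1.18 (95% interval −1.63 to −0.73, adjusted p = 2.78e-05) on day 3 and −0.68 (95% interval −1.15 to −0.21, adjusted p = 0.0165) on day 7. With only the arrays compared in the fit the KO day 1 difference passed (−0.49, adjusted p = 0.000894). The second probe set, 1415804_at, lay lower, with a called fall on each day in WT (log2 −0.47, −0.52 and −0.47) and on day 3 and day 7 in KO (−0.36 and −0.35). The others, 1421610_at and 1441884_x_at, stayed between 2.17 and 2.46. Neuron markers fell in the same arrays, beside 26.4% to 38.4% of all genes called lower. In WT 5 of 6 tested markers fell on day 1 and 6 of 6 on day 3 and on day 7. In KO 2, 6 and 5 of these 6 markers fell. Their mean level ran over 12.67 to 12.72 in sham, 11.65 to 12.25 on day 1, 11.45 to 11.86 on day 3 and 11.76 to 11.97 on day 7 in WT and 12.63 to 12.74 in sham, 12.01 to 12.36 on day 1, 10.66 to 11.93 on day 3 and 11.95 to 12.00 on day 7 in KO, and its part in the fall of Cx3cl1 was not tested.

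**Figure D3:**
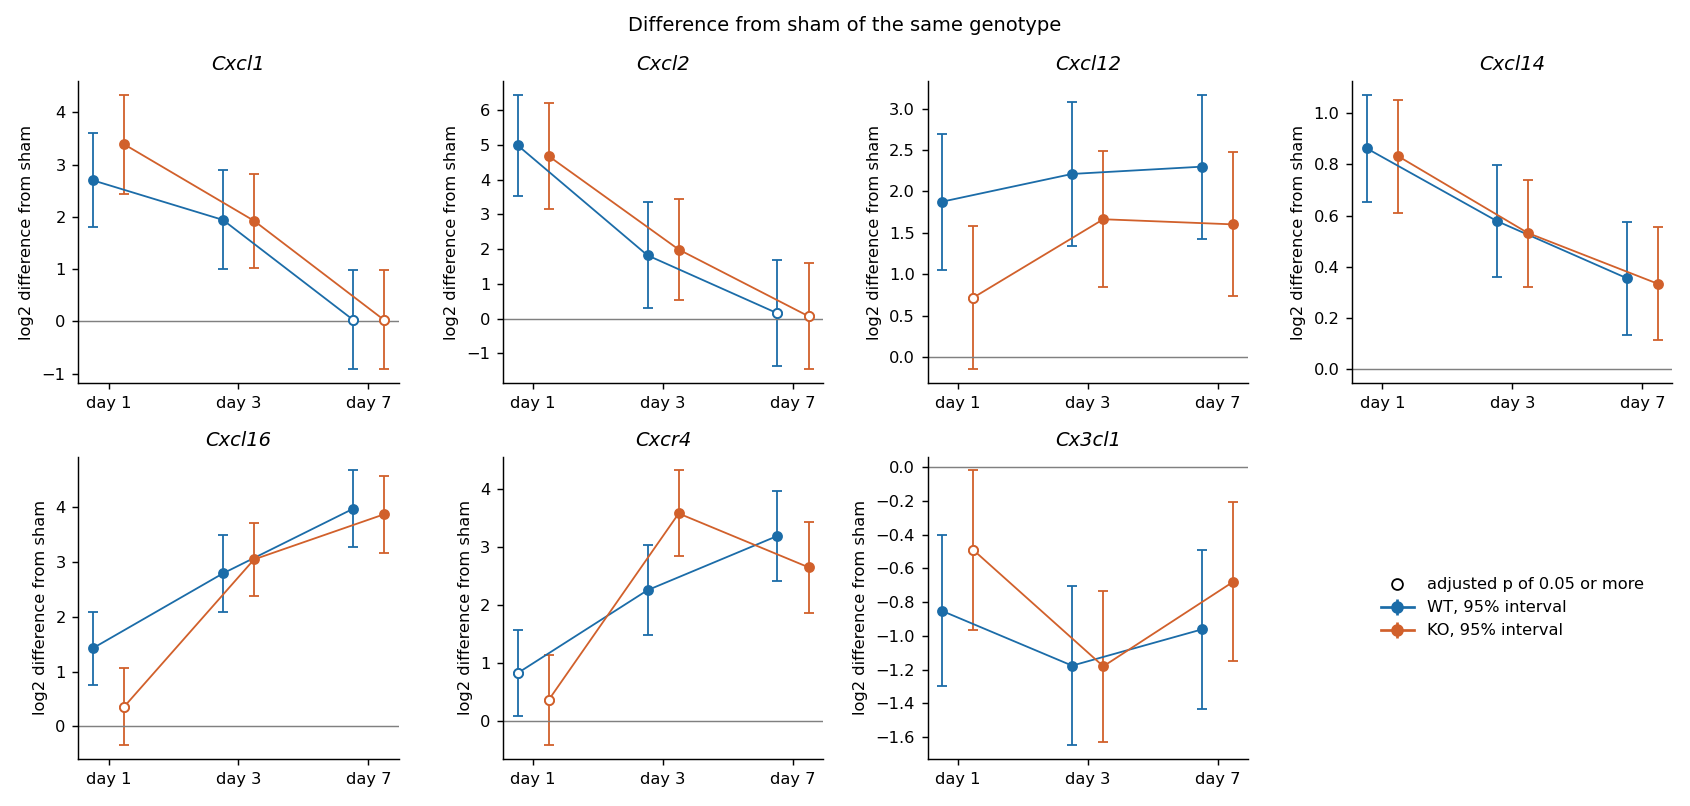
Log2 difference from the sham group of the same genotype (y axis) with its 95% interval from limma, on day 1, day 3 and day 7 (x axis), in WT (blue) and KO (orange). Open circles mark an adjusted p of 0.05 or more, such as Cxcl12, Cxcl16 and Cx3cl1 on day 1 in KO (log2 0.72, 0.36 and −0.49).

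The steps between days gave the order of the levels within each genotype. From day 1 to day 3 in WT 4 of 7 members changed, 2 up and 2 down, beside 30.9% of all genes in either direction. In KO 6 of 7 changed, 2 up and 4 down, beside 53.0%. Cxcl2 fell by 3.17 on the log2 scale in WT (adjusted p = 0.00138) and by 2.69 in KO (adjusted p = 0.00279). Cxcl1 fell by 1.47 in KO (adjusted p = 0.00739). In WT its difference was −0.76 (adjusted p = 0.205), which passed without day 3 WT replicate 2 (−1.37, adjusted p = 0.00855). Cxcl16 rose by 1.36 in WT (adjusted p = 0.00245) and 2.69 in KO (adjusted p = 1.43e-07), and Cxcr4 rose by 1.43 in WT (adjusted p = 0.00406) and 3.22 in KO (adjusted p = 4.18e-08). Cxcl14 fell by 0.28 in WT (adjusted p = 0.0383), a call lost without any 1 of day 3 WT replicate 1, 3 or 4 or day 1 WT replicate 1, 3 or 5 (−0.30 to −0.22, adjusted p = 0.0543 to 0.139). In KO it fell by 0.30 (adjusted p = 0.0171), a call lost without day 3 KO replicate 3 (−0.25, adjusted p = 0.0598). Cx3cl1 fell by 0.69 in KO (adjusted p = 0.0108), a call lost without day 3 KO replicate 3 (−0.50, adjusted p = 0.051), and was −0.33 in WT (adjusted p = 0.279). Cxcl12 did not pass in WT (0.34, adjusted p = 0.567) or in KO (0.95, adjusted p = 0.0545). The KO difference passed without any 1 of day 3 KO replicate 2 or day 7 WT replicate 2 or sham WT replicate 1 or sham KO replicate 2 or day 1 KO replicate 1 (0.95 to 1.13, adjusted p = 0.0204 to 0.05).

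From day 3 to day 7, 2 of 7 members changed in WT, 1 up and 1 down (background 21.6%), and 2 in KO, both down (background 33.9%). Cxcl1 fell by 1.91 in WT (adjusted p = 0.00388) and 1.90 in KO (adjusted p = 0.00207). Cxcl2 fell by 1.92 in KO (adjusted p = 0.0402), a call lost without any 1 of day 3 KO replicate 1, 3 or 4 or day 7 KO replicate 1, 2, 3 or 4 (−1.97 to −1.55, adjusted p = 0.0652 to 0.126). In WT its difference was −1.67 (adjusted p = 0.118), which passed without day 3 WT replicate 1 (−2.19, adjusted p = 0.0456) and without day 3 WT replicate 4 (−2.19, adjusted p = 0.0425). Cxcl16 rose by 1.18 in WT (adjusted p = 0.015), a call lost without day 3 WT replicate 2 (1.03, adjusted p = 0.0646). In KO its difference was 0.82 (adjusted p = 0.0542), which passed without any 1 of day 3 WT replicate 2 or day 3 KO replicate 4 or sham WT replicate 3 or sham KO replicate 1 or 2 or day 1 WT replicate 5 (0.82 to 0.97, adjusted p = 0.0268 to 0.0478). Cxcr4 was 0.94 in WT (adjusted p = 0.0844) and −0.93 in KO (adjusted p = 0.0515). The WT difference passed without day 3 WT replicate 3 (1.15, adjusted p = 0.0471), and the KO difference without any 1 of day 3 WT replicate 2 or 3 or day 3 KO replicate 2 or 5 or day 1 WT replicate 3 (−1.15 to −0.93, adjusted p = 0.0124 to 0.049). Cx3cl1 was 0.50 in KO (adjusted p = 0.0798) and passed without day 3 KO replicate 2 (0.67, adjusted p = 0.0164) and without day 3 KO replicate 5 (0.64, adjusted p = 0.0225). Cxcl12 and Cxcl14 differed by −0.22 to 0.09 between these days in both genotypes, without a call. On 1417574_at Cxcl12 differed by −0.85 in WT (adjusted p = 0.0812) and −1.08 in KO (adjusted p = 0.0134). With only the arrays compared in the fit, the falls of Cxcl1 in WT (−1.91, adjusted p = 0.0928) and of Cxcl2 in KO (−1.92, adjusted p = 0.104) and, from day 1 to day 3, the rise of Cxcr4 in WT (1.43, adjusted p = 0.0639) and the falls of Cxcl14 in WT (−0.28, adjusted p = 0.116) and of Cx3cl1 in KO (−0.69, adjusted p = 0.103) were not called. The count of 2 in WT ran from 1 to 3 over single leave-outs (1 without day 3 WT replicate 2), and that in KO from 1 to 4. It was 1 without day 3 KO replicate 1 or 3 and without each of the 4 day 7 KO arrays, and 4 without day 3 WT replicate 2 or day 3 KO replicate 2 or 5.

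In the fit to all arrays no member was called between KO and WT. Between KO and WT 0 of 7 members were called in sham, on day 1, on day 3, on day 7 and for the mean of the 4 conditions, beside 0.0667%, 0.717%, 0.0333%, 0.0333% and 0.133% of all genes. At an unadjusted p under 0.05 limma gave 0, 1, 1, 0 and 0 members. Alternatives that include the fit without the library labelled sham KO replicate 2 gave no call in sham. Over these the sham difference ran from −0.103 to 0.835 for Cxcl12 (0.447 as reported) and from −0.309 to 0.487 for Cxcl16 (0.081). On day 1 the member nearest to the threshold was Cxcl16, lower in KO: −0.99 (95% interval −1.65 to −0.32, adjusted p = 0.231). WT arrays read 5.88, 6.18, 5.65, 5.90 and 4.70 and KO arrays 5.14, 4.50, 4.55 and 4.50, so the groups overlapped through WT replicate 5 and KO replicate 1. On day 3 it was Cxcr4, higher in KO: 1.28 (95% interval 0.54 to 2.02, adjusted p = 0.302). WT arrays read 6.22, 4.07, 6.30 and 6.09 and KO arrays 6.98, 6.05, 7.69, 7.87 and 6.16, again overlapping. Without day 3 WT replicate 2 the difference was 0.74, adjusted p = 0.698. In 2 cases the genotypes did not overlap, without a call. On day 1 all KO arrays read Cxcl12 lower (6.79 to 7.51) than all WT arrays (7.58 to 8.27), at −0.71, adjusted p = 0.649. On day 7 Cxcr4 read 5.67 to 6.42 in KO and 6.45 to 6.96 in WT (−0.59, adjusted p = 1). The share of all genes without overlap between genotypes was not computed, so these cases are a description. The dimmer probe sets gave other members at an unadjusted p under 0.05 and none at an adjusted one: Cxcl1 on 1457644_s_at was 1.18 on day 1 (adjusted p = 0.531), Cxcl16 on 1418718_at 0.71 on day 3 (adjusted p = 0.379) and Cxcl12 on 1417574_at −0.78 on day 7 (adjusted p = 1).

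The intervals say how large a difference these numbers of arrays leave possible. For Cxcl14 the 95% interval of KO minus WT ran from −0.18 to 0.26 in sham, −0.20 to 0.22 on day 1, −0.22 to 0.20 on day 3 and −0.20 to 0.24 on day 7. For Cxcl2 it was −1.77 to 1.13 on day 1 and −1.29 to 1.61 on day 3. For Cxcl1 it was −0.20 to 1.59 on day 1 and −0.91 to 0.88 on day 3. For Cxcl12 on day 1 it was −1.54 to 0.11 around a difference of −0.71, and for Cx3cl1 on day 1 −0.11 to 0.78 around 0.33. For Cxcr4 on day 1 it was −1.25 to 0.23. On day 1 a difference of 1 on the log2 scale therefore lay inside the interval in both directions for Cxcl2. It did so only toward higher KO for Cxcl1, and only toward lower KO for Cxcl12, Cxcl16 and Cxcr4. For Cxcl14 and Cx3cl1 it lay outside the interval in both directions.

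The difference between genotypes in the response to injury was tested as such. For injury by genotype 0 of 7 members were called on day 1, day 3 and day 7, beside 0.108%, 0% and 0.00833% of all genes, and 1, 1 and 0 had an unadjusted p under 0.05 in limma. These were Cxcl16 on day 1, −1.07 (95% interval −2.04 to −0.10, adjusted p = 0.841), and Cxcr4 on day 3, 1.32 (95% interval 0.25 to 2.40, adjusted p = 0.748). Over the alternatives the day 1 value ran from −1.475 to −0.434 for Cxcl16 and from −1.547 to −0.591 for Cxcl12, without a call. For the step from day 1 to day 3 by genotype 0 members were called and 2 had an unadjusted p under 0.05 (background 0.633%). Cxcr4 gave 1.78 (95% interval 0.74 to 2.83, adjusted p = 0.125), and passed without day 3 KO replicate 2 (2.01, adjusted p = 0.0447). Cxcl16 gave 1.33 (95% interval 0.39 to 2.27, adjusted p = 0.232). For the step from day 3 to day 7 by genotype 0 were called and 1, Cxcr4 at −1.86 (95% interval −2.94 to −0.79, adjusted p = 0.605), had an unadjusted p under 0.05 (background 0.00833%). Cxcl12, Cxcl16 and Cx3cl1 were called on day 1 in WT and not in KO, and for none of them was the difference between these responses called.

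**Figure D4:**
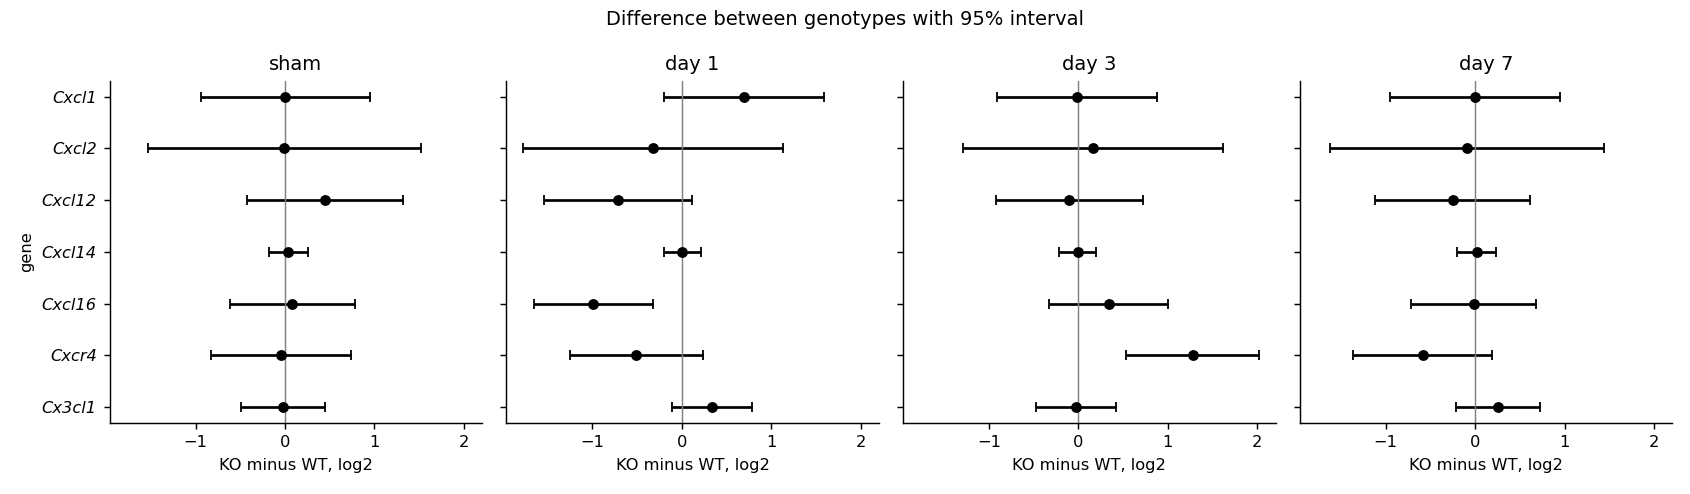
KO minus WT difference in log2 signal (x axis) with its 95% interval from limma for the 7 tested members (y axis), in sham, on day 1, on day 3 and on day 7. The intervals of Cxcl16 on day 1 (−1.65 to −0.32) and Cxcr4 on day 3 (0.54 to 2.02) leave out 0 before adjustment, and no adjusted p is under 0.05.

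Beside shares of 22.9% to 30.7% of all genes called higher and 26.4% to 38.4% lower, other ligands of these classes rose after injury too. Of 8 listed, 4 were tested, and Cxcl9, Cxcl11, Cxcl15 and Cxcl17 lay below the filter. Of the 4, 3, 3 and 2 rose and 0, 0 and 0 fell on day 1, day 3 and day 7 in WT, and 3, 4 and 2 rose and 0, 0 and 0 fell in KO. Their median log2 difference was 3.58, 1.48 and 1.53 in WT and 4.02, 2.39 and 1.97 in KO, beside medians of −0.06 to −0.05 over all genes. Cxcl3, from the same gene cluster as Cxcl1 and Cxcl2 and with the same κB letters, averaged 2.29 ± 0.16 (SD, n = 4) in sham WT and 8.63 ± 0.48 (SD, n = 5) on day 1, a log2 difference of 6.34 ± 0.63 (SE, adjusted p = 2.37e-09). In KO the difference was 5.75 ± 0.66 (SE, adjusted p = 5.67e-08), and on day 7 it was −0.07 in WT and 0.04 in KO. Sham arrays read Cxcl3 at 2.21 to 2.59, so it passed the filter through injured arrays alone. A rise was thus built in, and near the floor its size is a lower bound. The counts and medians of this list include Cxcl3 and are no test. Pf4, platelet factor 4, from the same cluster, kept a difference of 3.71 ± 0.51 in WT and 3.90 ± 0.51 in KO on day 7 (SE, adjusted p = 7.97e-07 and 4.15e-07). It was highest on day 3, at 5.56 ± 0.51 and 6.05 ± 0.48. Cxcl10, an interferon-induced ligand of Cxcr3, had its lowest injured level on day 3: the difference was 3.18 ± 0.43, 1.29 ± 0.45 and 3.12 ± 0.45 on day 1, day 3 and day 7 in WT, and 4.84 ± 0.45, 2.44 ± 0.43 and 4.05 ± 0.45 in KO (SE).

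The counts of receptors and enzymes stand beside 22.9% to 30.7% of all genes called higher and 26.4% to 38.4% called lower. Of 8 further receptors 3 were tested, and Cxcr2, Cxcr3, Cxcr5 and Cxcr6 lay below the filter. Of the 3, 3, 2 and 2 rose and 0, 0 and 1 fell on day 1, day 3 and day 7 in WT, and 2, 2 and 2 rose and 0, 0 and 1 fell in KO. Cx3cr1, the receptor of Cx3cl1, rose in both genotypes: 1.44 ± 0.20 on day 3 and 2.68 ± 0.20 on day 7 in WT, and 1.94 ± 0.19 and 2.68 ± 0.20 in KO (log2 difference ± SE). Ackr3, the scavenging receptor of Cxcl12, rose on every day, by 1.20 ± 0.19 on day 1 and 0.69 ± 0.20 on day 7 in WT, and by 1.09 ± 0.20 and 0.51 ± 0.20 in KO. Ackr1, a chemokine-binding receptor of venules, was higher on day 1 (0.77 ± 0.15 and 0.91 ± 0.15) and lower on day 7 (−0.41 ± 0.15 and −0.44 ± 0.15). Of 6 enzymes that cut chemokines 5 were tested and 2, 3 and 3 rose and 0, 0 and 0 fell on day 1, day 3 and day 7 in WT, and 2, 3 and 4 rose and 0, 0 and 0 fell in KO. Adam17, a sheddase of Cx3cl1 and Cxcl16, rose by 1.57 ± 0.14 on day 7 in WT and 1.41 ± 0.14 in KO, and Adam10 by 0.81 ± 0.09 and 0.73 ± 0.09. Mmp2, which trims Cxcl12, rose by 2.47 ± 0.43 and 2.14 ± 0.43 on day 7.

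Over all genes 22.9% to 30.7% were called higher and 26.4% to 38.4% lower in the comparisons with sham. Of 16 genes of chemokine receptor signalling 14 were tested, and 9, 11 and 10 rose and 2, 3 and 2 fell on day 1, day 3 and day 7 in WT, and 10, 11 and 10 rose and 2, 2 and 2 fell in KO. Their medians were 0.46, 0.93 and 0.80 in WT and 0.66, 0.99 and 0.80 in KO. Rgs1, a brake on G protein signalling in leukocytes, rose by 4.47 ± 0.39 on day 7 in WT and 4.55 ± 0.39 in KO, Vav1, an exchange factor of blood cells, by 3.53 ± 0.30 and 3.31 ± 0.30, and Rac2, the Rac GTPase of blood cells, by 2.47 ± 0.25 and 2.66 ± 0.25. These are genes of leukocytes, and monocyte and macrophage markers rose in the same arrays. Of 12 inducers and mRNA regulators of chemokines 9 were tested, with Il1a and Tnf below the filter, and 8, 7 and 6 rose and 0, 0 and 0 fell on day 1, day 3 and day 7 in WT, and 8, 7 and 6 rose and 0, 0 and 0 fell in KO. Il6 rose on day 1 (4.12 ± 0.62 in WT and 4.15 ± 0.66 in KO), and its difference on day 7 was 0.01 ± 0.66 and −0.02 ± 0.66. Il1b rose by 2.65 ± 0.38 and 3.48 ± 0.40 on day 1, and Zfp36, which destabilises cytokine and chemokine mRNA, by 2.25 ± 0.24 and 2.60 ± 0.26. Every sham array read Il6, Il1b, Vav1 and Rac2 below 4, so these passed the filter through injured arrays alone. A rise was thus built in for them, and the counts of both lists are no test. In sham Il6 sat at the floor, so its day 1 difference is a lower bound. None of these 5 lists had a member called between KO and WT in sham, on day 1, on day 3, on day 7 or for the mean of the 4 conditions by limma. The shares of all genes called there were 0.0667%, 0.717%, 0.0333%, 0.0333% and 0.133%.

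The genes whose signal ran most like each member over the 34 arrays were named by Pearson's r, as a description in which all arrays share the same injury groups. For Cxcl1 these were Rassf1 (r = 0.96), Il1r2 (r = 0.95) and Srsf2 (r = 0.95), and for Cxcl2 Cxcl3 (r = 0.98), Gnl3 (r = 0.94) and Nop58 (r = 0.93). Il1r2 is the decoy receptor of interleukin 1. For Cxcl12 they were Mrc1 (r = 0.92), Col5a1 (r = 0.92) and Loxl1 (r = 0.92), a macrophage mannose receptor, a fibrillar collagen and a collagen crosslinking enzyme. For Cxcl14 they were Sdc4 (r = 0.92), Galnt15 (r = 0.91) and Tnfrsf12a (r = 0.91). For Cxcl16 they were Ctsh (r = 0.98), Hacd4 (r = 0.97) and Slamf9 (r = 0.97), of which Ctsh is a lysosomal cathepsin. For Cxcr4 they were Dgkz (r = 0.96), Igf2r (r = 0.96) and Adam17 (r = 0.96), and for Cx3cl1 Pnmal2 (r = 0.97), Bmerb1 (r = 0.96) and Adgrl1 (r = 0.96), the last an adhesion receptor of neurons.

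Set beside the cell type marker lists, the members ran with several cell types at once. Over the 34 arrays Cx3cl1 correlated with neuron markers at r = 0.95, and with monocyte and macrophage markers at r = −0.80. Cxcl12, Cxcl16 and Cxcr4 correlated with fibroblast markers at r = 0.87, 0.89 and 0.82 and with monocyte and macrophage markers at r = 0.82, 0.88 and 0.88, so that these lists do not separate them. With microglia markers they correlated at r = 0.34, 0.79 and 0.77. Cxcl1 and Cxcl2 correlated with endothelial markers at r = 0.74 and 0.58, with microglia markers at r = −0.63 and −0.68, and with neutrophil markers at r = −0.05 and −0.06. The mean of the microglia markers, 6 of 7 tested, was lowest on day 1: it ran over 7.11 to 7.52 in sham, 6.33 to 6.64 on day 1, 6.69 to 8.49 on day 3 and 8.82 to 8.93 on day 7 in WT and 7.08 to 7.36 in sham, 5.84 to 6.29 on day 1, 7.86 to 8.64 on day 3 and 8.98 to 9.05 on day 7 in KO. The listed genes differed on day 1. P2ry12 (−2.80 in WT and −3.46 in KO) and Siglech (−2.41 and −2.02) fell. Gpr34 fell in KO only (−0.98), and Tmem119 and Sall1 were not called. Cx3cr1 was called higher in WT (0.54, adjusted p = 0.0175 in limma) and not in KO (0.35). The correlations share the injury groups and are no test. Skeletal muscle markers, a sign of tissue outside the cord, were highest in day 3 KO replicates 3 and 1, at 13.90 and 11.65, beside 4.60 to 5.54 in the other day 3 KO arrays. They ran from 7.93 to 10.81 in sham KO and 3.46 to 9.18 in sham WT. Without these 2 day 3 KO arrays, an alternative added after the values were seen, the day 3 difference from sham in KO was 1.04, adjusted p = 0.238 for Cxcl2, 3.33, adjusted p = 1.42e-07 for Cxcr4 and 1.39, adjusted p = 0.00831 for Cxcl12. The count of members called was 6 of 7 there, in place of 7.

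**Figure D5:**
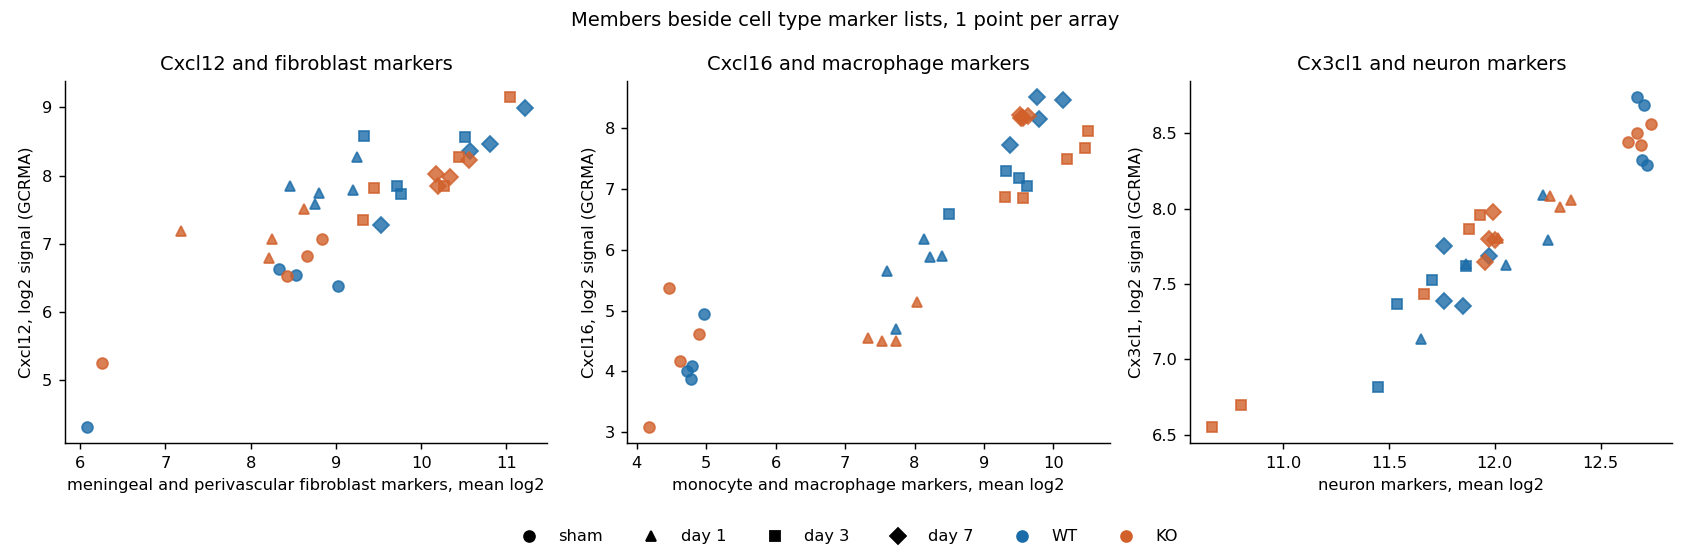
Log2 GCRMA signal of Cxcl12, Cxcl16 and Cx3cl1 (y axes) against the mean log2 level of the fibroblast, monocyte and macrophage, and neuron marker lists (x axes), with 1 point per array, shapes for sham and the days, and colours for WT and KO. The 2 sham arrays lowest in Cxcl12, at 4.33 and 5.25, are the 2 lowest in fibroblast markers.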

How the data were processed

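RNA of thoracic spinal cord was hybridised to 34 Mouse430_2 arrays, 1 per sample, 4 or 5 in each of 8 groups. The deposited values are log2 signals made with GCRMA, per the submitters' processing notes, with a version that the sources used here do not name. GCRMA corrects background by probe sequence and normalizes between arrays, and it draws dim probe sets to a common floor. The number of arrays limits the precision. Here, 64 array control probe sets were removed and probe sets that reached 4 on the log2 scale in 4 or more arrays were tested. Group means were fitted to all arrays with lmFit and eBayes of limma 3.58.1 in R 4.3.3, with Benjamini-Hochberg adjustment over 24573 probe sets and 20 comparisons taken from that fit. The fit was tested on simulated data. Python 3.11.15 read the sequences and drew the figures. Gene names came from the platform annotation (34958 probe sets with 1 symbol, 932 with several, 9211 with none), and only probe sets with 1 symbol were named. Titles gave the groups. The members and gene lists were chosen with earlier results of these data known. Of each pathway list the 3 genes with the largest absolute difference from sham were named, and for each member the 3 genes with the highest Pearson's r. Alternatives changed the filter, the normalization, the variance model, the arrays fitted, the disputed labels and the use of several probe sets, and left out each array in turn. Same-numbered arrays of different groups were correlated over 0.1 in 11 of 40 pairs (−0.36 to 0.33), so replicate numbers were not taken as pairs.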

Additional observations from a re-analysis of the deposited data

Results flagged for a closer look

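In 55 groups of 4 or 5 arrays of the 7 tested members, 5 lone arrays stood apart from the rest of their group by Dixon's gap test, which flags about 1 group in 20 by chance. In sham WT, replicate 1 read Cxcl12 at 4.325, where the others read 6.384 to 6.629, and Cxcl2 at 2.198, where the others read 2.17, a gap of no size on this scale. Day 3 WT replicate 2 read Cxcr4 at 4.069, with the others between 6.093 and 6.299. Day 7 WT replicate 4 read it at 6.956, with the others between 6.451 and 6.537. Day 1 KO replicate 1 read Cxcl16 at 5.141, with the others between 4.496 and 4.552. The causes were not tested. Among the 42 injured groups of the 7 probe sets below the filter, 1 stood above every sham array by more than 0.1: Cxcl5 averaged 2.892 on day 1 in WT, with arrays between 2.513 and 3.455, and the highest sham array read 2.197.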

How the results depend on the processing

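The share of all genes called was not computed under the alternatives below. Counts of members called moved by over 1.5 times in these cases. With only the arrays compared in the fit they were 5 on day 1 against sham in KO (3 as reported), 2 from day 1 to day 3 in WT (4) and 1 from day 3 to day 7 in WT (2). With the disputed arrays placed by source and time field they were 2 on day 1 in WT (6), 2 from day 1 to day 3 in WT, 0 from day 3 to day 7 in WT, 3 from day 1 to day 3 in KO (6) and 1 from day 3 to day 7 in KO (2). With a gene's probe sets averaged they were 3 on day 7 in KO (5) and 4 from day 3 to day 7 in KO, and with no filter 1 there. Without day 3 KO replicates 1 and 3, chosen after seeing the data, that count was 1. Over single leave-outs it ran from 1 to 4, that of WT from 1 to 3, and that of the step from day 1 to day 3 by genotype from 0 to 1. With a replicate block, although the numbers do not pair the arrays, the counts were 1 for KO against WT on day 1 (Cxcl16, −1.17, adjusted p = 0.0294, where its alternatives ran from 0.0294 to 1), 1 for the step from day 1 to day 3 by genotype (Cxcl16, 1.69, adjusted p = 0.0286, where its alternatives ran from 0.0286 to 0.868) and 4 from day 3 to day 7 in KO. Of 3542 recomputed differences of single members, 3414 kept direction and side of the threshold, 62 lost a call, 51 gained one and 15 changed sign. The last had no call in the reported fit: Cxcl1 on day 7 by quantile normalization (−0.075 in WT, −0.079 in KO) and over leave-outs in WT (−0.035 to 0.080), Cxcl2 on day 7 in WT by field (−0.217), and Cxcl16 on day 1 in KO over leave-outs (−0.046 to 0.711). From day 3 to day 7, Cxcl12 in WT gave −0.018 by field, −0.379 by the mean and −0.153 to 0.421 over leave-outs. In KO it gave 0.242 with array weights, 0.211 without day 3 KO replicates 1 and 3 and −0.245 to 0.203 over leave-outs, and Cxcl14 in WT 0.034 by the mean. The causes were not tested. Values at the floor limit Cxcl2, Cxcl5 and Cxcl13, whose sham levels lie at it.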

Other observations

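The members also ran with one another in groups, as a description over 34 arrays that share the injury groups. Cxcl1 correlated with Cxcl2 at r = 0.89, and Cxcl16 with Cxcr4 at r = 0.89. Cxcl12 and Cx3cl1 ran in opposite directions (r = −0.77).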
